A study of Mus musculus with 10 samples.

Results

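Small leucine-rich proteoglycans are secreted proteins of the extracellular matrix, and 9 of their genes (Dcn, Bgn, Aspn, Lum, Fmod, Prelp, Omd, Ogn and Podn) were followed by name among the 41249 genes counted in interscapular brown adipose tissue (iBAT). RNA of whole iBAT was sequenced from male mice on a C57Bl6 background with 1 library each, of which 5 were Axl KO and 5 wild type (WT). Per the labels, all mice had eaten a high-fat diet (HFD) for 24 weeks, starting at an age of 6 to 8 weeks, at standard room temperature. Axl KO mice lacked the receptor tyrosine kinase AXL constitutively and in the whole body, through a knockout-first allele in which a reporter and selection cassette interrupts the gene, and they were compared with WT littermates. A difference can therefore arise in any cell of the depot or outside it, and since whole tissue was used, fewer cells of a type and less RNA per cell cannot be told apart.

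These proteoglycans carry a curved domain of leucine-rich repeats that binds collagen fibrils and sets their diameter and spacing. Most carry glycosaminoglycan chains, of chondroitin or dermatan sulfate in decorin (Dcn) and biglycan (Bgn) and of keratan sulfate in lumican (Lum) and fibromodulin (Fmod), and several bind TGF-beta or, once released from the matrix, act on receptors of other cells. In adipose tissue they are made mainly by fibroblasts and adipocyte progenitors of the stroma.

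Several of the genes lie beside each other in the genome (GRCm38). Aspn (chr13:49544443-49567565), Omd (chr13:49582462-49592822) and Ogn (chr13:49608046-49624501) follow one another on the plus strand, with gaps of 14896 and 15223 bases, all inside the antisense gene Cenpp. Dcn (chr10:97479609-97518143) and Lum (chr10:97565128-97572703) are 46984 bases apart on the plus strand, and Prelp (chr1:133910304-133921414, minus strand) and Fmod (chr1:134037254-134048277, plus strand) 115839 bases apart. Bgn (chrX:73483602-73495933, plus strand) and Podn (chr4:108014791-108096445, minus strand) have no other member near them.

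RefSeq promoter windows of 300 bases, 250 before the transcription start and 50 from it on, were found for 7 of the 9 genes. Those of the 3 chromosome 13 genes are shown because the counts of Ogn and Aspn followed each other from mouse to mouse, and that of Prelp because it gave the highest count of all members. The sequences are from GRCm38.p6, read 5′ to 3′ on the strand of the gene, and capitals mark the letters of 5 motifs that were searched on both strands. These were the core promoter motif spelled TATAAA, the CCAAT box, the GC box spelled as GGGCGG, the AP-1 motif with the letters TGANTCA and the TEAD motif with the letters GGAATG.
Aspn, chr13:49544193-49544492, plus strand: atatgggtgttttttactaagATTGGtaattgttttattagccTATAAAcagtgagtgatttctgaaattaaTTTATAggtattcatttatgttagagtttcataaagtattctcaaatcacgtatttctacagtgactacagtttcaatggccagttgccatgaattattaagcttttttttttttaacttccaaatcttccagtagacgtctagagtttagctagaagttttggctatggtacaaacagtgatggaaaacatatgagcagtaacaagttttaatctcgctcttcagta
Omd, chr13:49582212-49582511, plus strand: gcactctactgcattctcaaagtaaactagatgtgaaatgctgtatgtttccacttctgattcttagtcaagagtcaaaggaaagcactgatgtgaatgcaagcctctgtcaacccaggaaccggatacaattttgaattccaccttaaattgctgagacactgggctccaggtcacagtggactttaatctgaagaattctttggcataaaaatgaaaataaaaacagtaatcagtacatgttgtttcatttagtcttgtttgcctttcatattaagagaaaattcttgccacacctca
Ogn, chr13:49607765-49608064, plus strand: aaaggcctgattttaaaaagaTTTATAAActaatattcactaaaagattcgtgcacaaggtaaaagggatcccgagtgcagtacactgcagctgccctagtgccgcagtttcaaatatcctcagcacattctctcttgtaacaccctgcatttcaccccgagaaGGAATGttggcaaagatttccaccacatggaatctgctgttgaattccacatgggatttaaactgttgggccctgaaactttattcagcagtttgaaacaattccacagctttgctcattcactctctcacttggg
Prelp, chr1:133921352-133921651, minus strand: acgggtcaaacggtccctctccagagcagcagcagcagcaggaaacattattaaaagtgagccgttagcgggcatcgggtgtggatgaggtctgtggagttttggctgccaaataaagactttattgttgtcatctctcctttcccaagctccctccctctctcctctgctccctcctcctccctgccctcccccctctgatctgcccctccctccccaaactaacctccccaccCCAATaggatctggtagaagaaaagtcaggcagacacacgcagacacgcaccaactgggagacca

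The Ogn window held the TATA motif on both strands, in 2 overlapping matches of which the first begins 229 bases before the start, and 1 TEAD motif. The Aspn window held 2 TATA motifs, of which the first begins 207 bases before the start and the second, marked as TTTATA, is on the other strand. It also held 1 CCAAT box that begins 229 bases before the start. The Prelp window held 1 CCAAT box that begins 15 bases before the start, and the Omd window none of the 5 motifs. Over all 32851 windows, the TATA motif was found in 13.6%, the CCAAT box in 37.4%, the GC box in 35.7%, the AP-1 motif in 7.81% and the TEAD motif in 14.7%. The windows of Aspn, Omd and Ogn contained 31, 37.7 and 42.3% G and C, less than that of Prelp with 55.3% and than the median window with 52.7%. These matches are descriptions of the letters and were not tied to any measurement of factor binding.

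The libraries held between 5431014 and 9580215 counts per mouse, and 13739 genes had a mean above 1 CPM (the count per 1000000 counts of the TMM-normalized library size) and were tested. Axl itself was measured at 2.01, 1.95, 1.75, 0.437 and 1.69 CPM in Axl KO mice 1 to 5 and at 52.3, 38.2, 41.3, 38.5 and 45.2 CPM in WT mice 1 to 5. The groups did not overlap, with a log2 fold change of -4.77 (SE 0.20, adjusted p = 1.1e-07, quasi-likelihood test of edgeR, adjusted by Benjamini-Hochberg over all tested genes). The brown adipocyte gene Ucp1 was measured at 4854 to 7632 CPM in Axl KO and 2990 to 5040 CPM in WT mice, so a defining gene of the labelled tissue was present in all mice. Skeletal muscle markers, in contrast, varied widely, as their sum was 40.3 and 16.7 CPM in Axl KO mice 1 and 2 and between 762 and 4892 CPM in the other mice.

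All 8 tested members gave a lower estimate in Axl KO than in WT iBAT, but none passed the adjusted threshold. Prelp and Ogn had the largest log2 fold changes, with a mean CPM lower by 19.6 and 19.0%. Fmod, with few counts, was lower by 23.2% in mean CPM with a wide error, whereas the estimates of Lum, Podn and Bgn were close to 0. Omd was below the filter on low counts and was not tested. At an adjusted p under 0.05 edgeR called 0 of the 8 members and 0.00728% of all tested genes, which is Axl alone. DESeq2 also called 0 of the 8 members, and 9 of the 13739 tested genes. At an unadjusted p under 0.05 by edgeR, 2 of the 8 (Prelp and Ogn) were lower in Axl KO, where 3.86% of all tested genes were. This count was 0 without Axl KO 5, 3 without Axl KO 3 and 1 or 2 without each other mouse, and 0 with tendon and fascia markers as a covariate. The members in it changed too, as without Axl KO 1 it was Dcn alone (unadjusted p = 0.0339 by edgeR). Over all tested genes and both directions, 1154 of 13739 had an unadjusted p under 0.05 with all mice. There were 2027 of 13719 without Axl KO 3, 973 of 13754 without Axl KO 5 and 453 of 13739 with the tendon covariate. The CPM of the groups overlapped for each of the 8 genes, and 1.35% of all tested genes had no overlap.

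The median log2 fold change of the 8 genes was -0.24, against -0.00059 over all tested genes, of which 50.2% were lower in Axl KO. Without Axl KO 5 the median of the members was -0.14, and without Axl KO 2 it was -0.16. The 8 genes share mice and in part cells of origin, so their common direction is a count and not 8 separate observations. Summed over the 9 genes, the level was 673 ± 81.0 CPM in Axl KO and 809 ± 36.2 CPM in WT mice (SD, n = 5), and most of this difference in CPM lay in Prelp.

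**Figure D1:**
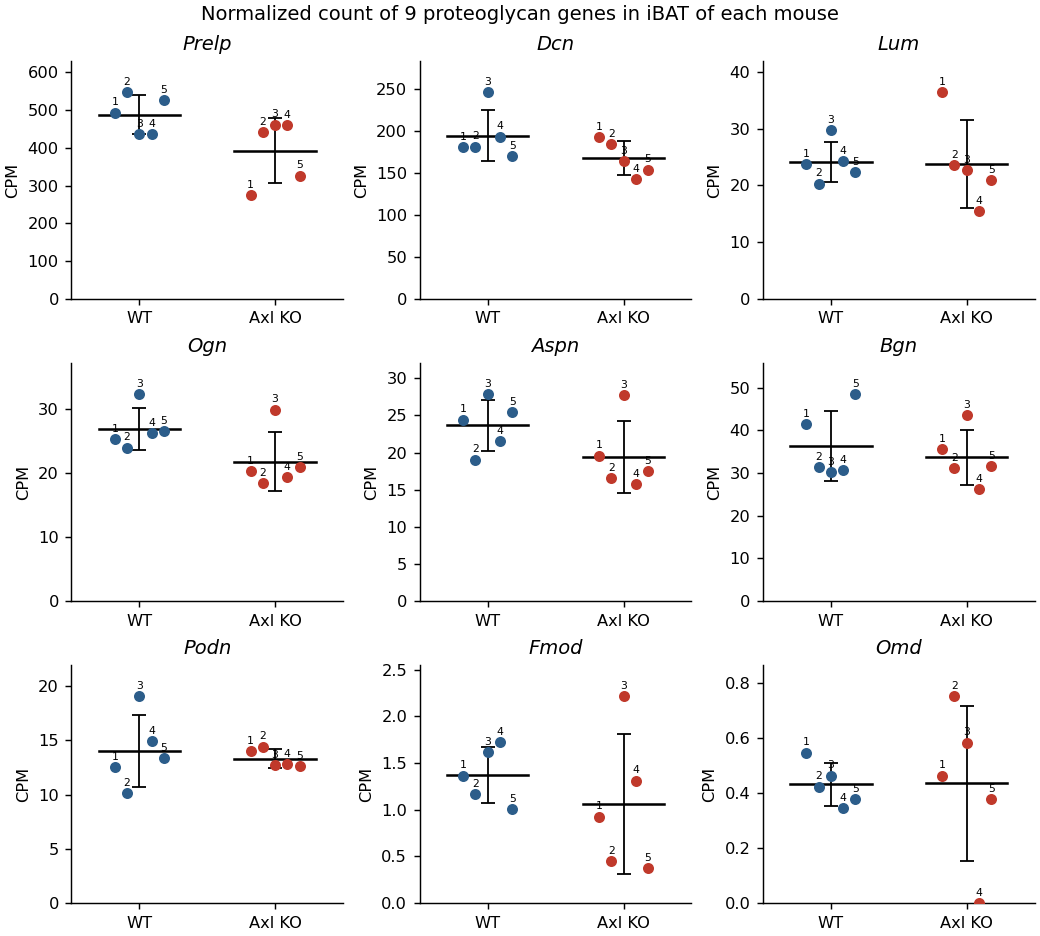
Normalized count (CPM, linear axis from 0) of the 9 genes in each mouse, with points numbered by replicate, the mean as a horizontal line and the SD as an error bar (n = 5 per group). The groups overlap for every gene, and 4 of the 5 Axl KO mice lie below all WT mice for Ogn.

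Prelp encodes prolargin, which anchors basement membranes to the collagen of the connective tissue and binds heparan sulfate through its basic N-terminus. Its level was 274, 440, 461, 459 and 326 CPM in Axl KO mice 1 to 5 and 493, 547, 437, 435 and 526 CPM in WT mice 1 to 5. Axl KO mice 1 and 5 lay below every WT mouse, the other 3 Axl KO mice were within the WT range, and 3 WT mice lay above every Axl KO mouse. The log2 fold change was -0.31 (SE 0.14, 95% interval -0.62 to -0.013, adjusted p = 0.579 by edgeR), and the exact two-sided permutation test of the CPM gave p = 0.0794, where 0.00794 is the smallest p that 5 against 5 mice allow. On its opposite strand, 350 bases (9.68%) of the Prelp exons are shared with Gm15851, on which only 0.0154 CPM were counted.

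Ogn encodes osteoglycin (mimecan), a regulator of collagen fibril assembly. It was measured at 20.2, 18.3, 29.8, 19.4 and 20.9 CPM in Axl KO mice 1 to 5 and at 25.3, 23.9, 32.3, 26.1 and 26.6 CPM in WT mice 1 to 5. Axl KO 3 stood apart from its group, inside the WT range, and the other 4 Axl KO mice lay below the lowest WT mouse. The log2 fold change was -0.30 (SE 0.13, 95% interval -0.58 to -0.011, adjusted p = 0.581 by edgeR; exact permutation p = 0.0873). Without Axl KO 3 it was -0.45 with an adjusted p of 0.126 by edgeR, so this mouse moved the estimate without changing the call.

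Aspn encodes asporin, a relative of decorin that carries an aspartate run in place of a glycosaminoglycan chain and binds collagen and TGF-beta. Its levels were 19.6, 16.5, 27.7, 15.7 and 17.5 CPM in Axl KO mice 1 to 5 and 24.4, 19.0, 27.9, 21.5 and 25.4 CPM in WT mice 1 to 5. As for Ogn, Axl KO 3 was the highest of its group and near the top of the WT range, while 3 Axl KO mice lay below all WT mice. The log2 fold change was -0.27 (SE 0.15, adjusted p = 0.642 by edgeR; exact permutation p = 0.143), and without Axl KO 3 it was -0.45.

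Dcn encodes decorin, the collagen-binding proteoglycan that also sequesters TGF-beta. Its levels were 193, 184, 164, 143 and 154 CPM in Axl KO mice 1 to 5 and 181, 181, 246, 193 and 170 CPM in WT mice 1 to 5. Axl KO 1 and 2 were within the WT range, the other 3 Axl KO mice were below it, and WT 3 stood above all other mice. The log2 fold change was -0.21 (SE 0.11, 95% interval -0.45 to 0.022, adjusted p = 0.608 by edgeR; exact permutation p = 0.127). Without WT 3 it was -0.11 (adjusted p = 0.768 by edgeR).

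Lum encodes lumican, which shapes fibril spacing in cornea, skin and tendon. Its levels were 36.4, 23.6, 22.7, 15.4 and 20.9 CPM in Axl KO mice 1 to 5 and 23.8, 20.3, 29.7, 24.2 and 22.3 CPM in WT mice 1 to 5. Both the highest and the lowest value belonged to Axl KO mice, so that the WT range lay inside that of Axl KO. The log2 fold change was -0.015 (95% interval -0.41 to 0.38, adjusted p = 0.993 by edgeR), an interval that leaves room for a difference in either direction.

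Bgn encodes biglycan, a close relative of decorin that is also known as a ligand of TLR2 and TLR4 once soluble. It was measured at 26.2 to 43.6 CPM (median 31.6) in Axl KO and 30.2 to 48.4 CPM (median 31.3) in WT mice, with a log2 fold change of -0.11 (95% interval -0.45 to 0.23, adjusted p = 0.863 by edgeR). Podn encodes podocan, a collagen-binding member known from the kidney and the vessel wall. Its levels were 12.6 to 14.4 CPM (median 12.8) in Axl KO and 10.2 to 19.1 CPM (median 13.3) in WT mice, the Axl KO mice lying wholly inside the WT range, with a log2 fold change of -0.071 (95% interval -0.39 to 0.24, adjusted p = 0.912 by edgeR). Podn overlaps the abundant gene Scp2 on its own strand, but their annotated exons share 0 bases.

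Fmod, the fibromodulin gene, and Omd, the gene of the bone proteoglycan osteomodulin, were at the edge of detection. Fmod gave 2 to 19 counts per mouse, or 1.06 ± 0.750 CPM in Axl KO and 1.37 ± 0.299 CPM in WT mice (SD, n = 5), and the interval of its log2 fold change, -1.14 to 0.59, spans more than that of any other member (adjusted p = 0.867 by edgeR). The estimate, -0.27 with all mice, was -0.78 without Axl KO 3, -0.081 without Axl KO 2 and -0.095 without Axl KO 5. Omd gave 32 counts in all 10 mice together, with means of 0.435 and 0.431 CPM in Axl KO and WT mice. In Axl KO 4 no Omd read was counted, which at this depth allows a level of up to 0.437 CPM (3 counts).

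**Figure D2:**
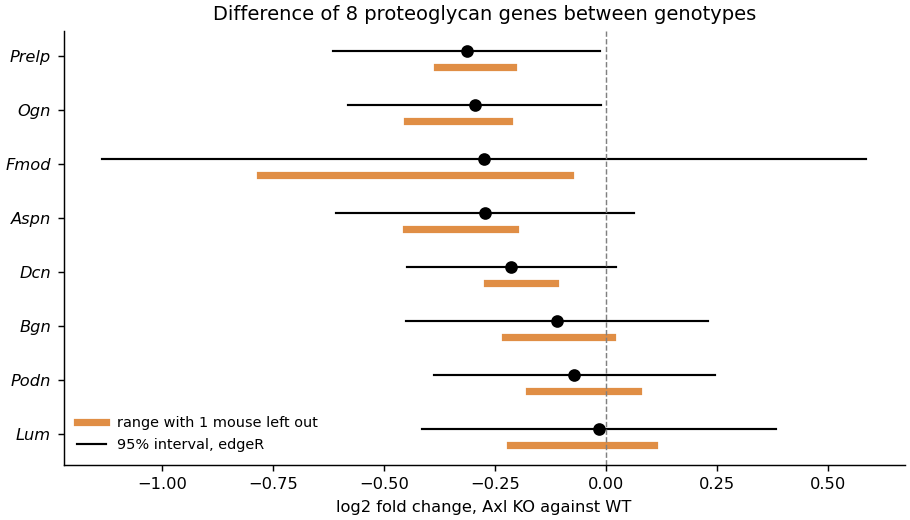
Log2 fold change of the 8 tested genes in Axl KO against WT iBAT (black points) with the 95% interval of the edgeR fit (black lines) and the range of the estimate when 1 of the 10 mice is left out (orange bars). All points lie below 0, and the range with 1 mouse left out crosses 0 for Lum, Podn and Bgn.

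Between genes, levels were compared per length of exon sequence and within each mouse. With the union of all annotated exons as length, Prelp was highest at 122 CPM per kb, followed by Dcn at 31.0 CPM per kb. Lum (9.78 CPM per kb), Ogn (9.46) and Aspn (9.15) formed a step of similar levels, below which came Bgn (5.74), Podn (3.20), Fmod (0.368) and Omd (0.192). Of the 8 neighbouring pairs in this order, 5 differed (adjusted p = 0.00313 each, exact paired permutation test over 10 mice, two-sided, 8 pairs), all with the same direction in 10 of 10 mice. Lum and Ogn (ratio 1.03, adjusted p = 0.811 by the exact test), Ogn and Aspn (ratio 1.03, adjusted p = 0.174 by the exact test) and Fmod and Omd (ratio 1.91, adjusted p = 0.0573 by the exact test) did not differ beyond their spread.

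The order depends on the length used, and the p-values of the exact test measure only the spread among mice. The annotated exons of Dcn span 5838 bases and those of Bgn 6099 bases, against 1758 and 2419 bases in their longest coding transcripts, and the counts do not tell which exons were read. With the length of the longest coding transcript, Dcn reached 103 CPM per kb beside 122 for Prelp, and this pair no longer differed (ratio 1.18, higher Prelp in 8 of 10 mice, adjusted p = 0.12 by the exact test). Bgn then moved from rank 6 to rank 3 at 14.5 CPM per kb. It lay above Lum (ratio 1.48, higher Bgn in 9 of 10 mice, adjusted p = 0.00781 by the exact test). The step from Aspn down to Bgn, which passed with the union of exons, was thus reversed with this length.

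**Figure D3:**
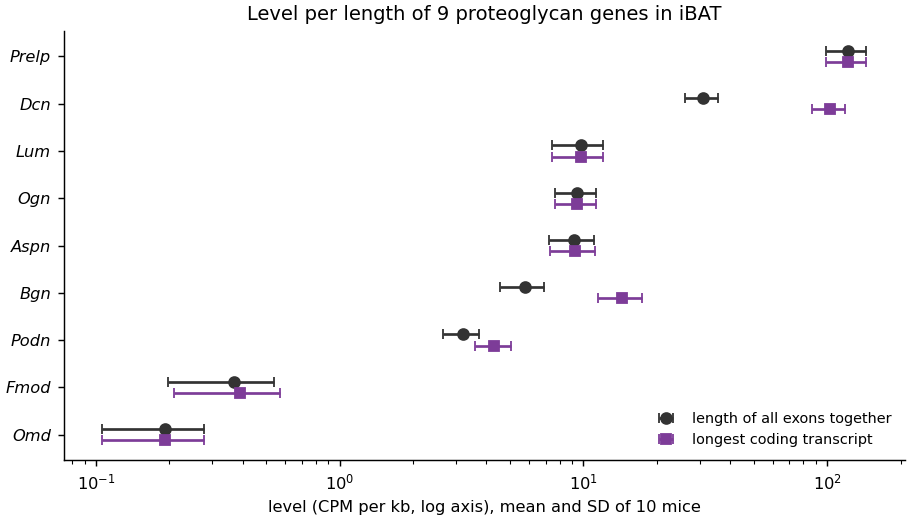
Level of the 9 genes in CPM per kb (log axis), as mean and SD of the 10 mice of both genotypes, with the union of exons (circles) or the longest coding transcript (squares) as length. Prelp is highest with both lengths, and Dcn and Bgn are the genes whose level moves most with the choice of length.

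The makeup of the summed proteoglycan counts varied among mice. Prelp made up between 46.1% (Axl KO 1) and 66.3% (Axl KO 4) of the summed CPM and Dcn between 20.4 and 32.5%. The ratio of Prelp to Dcn counts, which no normalization of library size touches, ranged from 1.42 to 3.21, and that of Prelp to Lum from 7.51 to 29.8. The ratio of Ogn to Aspn counts ranged only from 1.03 to 1.26 over the same 10 mice.

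Neighbouring genes were also compared by their correlation across mice, computed on log2(CPM + 0.5) after the mean of each genotype was removed, with permutation within genotype and adjustment over the 3 pairs that could be tested. Ogn and Aspn correlated with r = 0.911 (permutation p = 0.00266, adjusted p = 0.00399) and rho = 0.855 (permutation p = 0.00474, adjusted p = 0.00711) over 10 mice. Leaving out the 2 mice farthest from the median of Ogn, Axl KO 3 and WT 3, lowered r to 0.665, and leaving out Axl KO 3 alone gave 0.756 with an adjusted permutation p of 0.0648, so the strength of the relation rests in part on that mouse.

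Dcn and Lum correlated with r = 0.817 (permutation p = 0.0009, adjusted p = 0.0027) and rho = 0.879 (permutation p = 0.00455, adjusted p = 0.00711), and with r = 0.718 without Axl KO 1 and WT 3. Fmod and Prelp, the pair on opposite strands, gave r = 0.236 (permutation p = 0.666, adjusted p = 0.666) and rho = 0.358 (permutation p = 0.416, adjusted p = 0.416), and r = -0.294 without Axl KO 3 and Axl KO 5. The other 25 pairs of tested members, given without a test, had r between -0.739 (Lum and Prelp) and 0.741 (Dcn and Podn) with a median of 0.218. High values were thus also found between genes that are not neighbours, among them Fmod and Ogn (r = 0.676) and Bgn and Aspn (r = 0.662), and whether neighbours differ from other pairs was not tested.

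**Figure D4:**
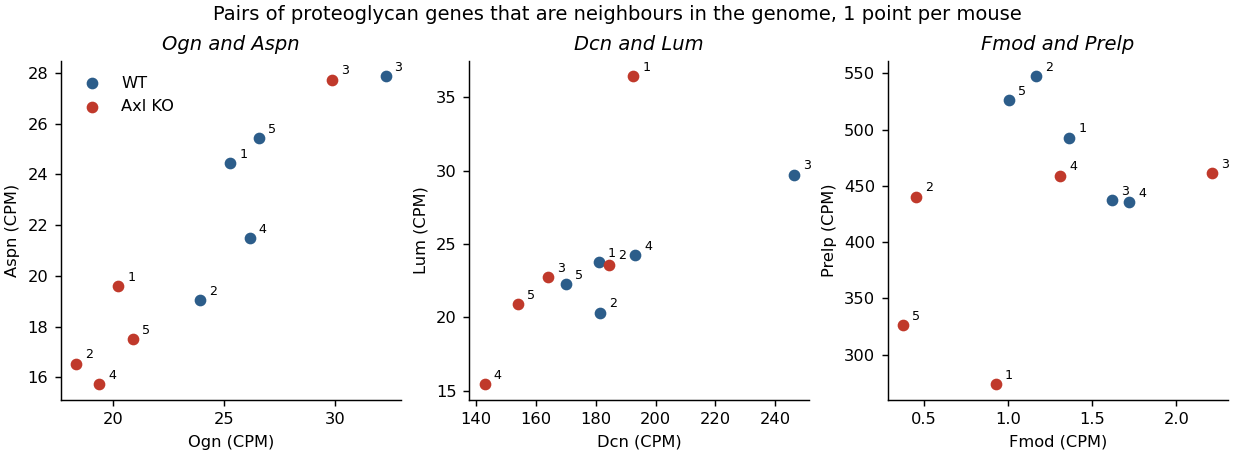
CPM of 3 pairs of neighbouring genes, 1 point per mouse, numbered by replicate and coloured by genotype (linear axes that do not start at 0). Ogn and Aspn lie along a line with replicate 3 of both genotypes at its upper end, Axl KO 1 lies above the other mice in the plot of Lum against Dcn, and Fmod and Prelp show no line.

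Over all 13738 other tested genes, Aspn was the gene most like Ogn across the 10 mice, and Ogn the gene most like Aspn (r = 0.934 with the genotype means kept in). The closest member to Lum was Dcn (r = 0.745, rank 84 among all tested genes), and the closest member to Prelp was Fmod with an r of only 0.404 (rank 2801). The genes outside the family that followed the mean of the 8 members most closely were Cd83 (r = 0.936), Ddr2 (0.922), Ppic (0.915), Eif5a2 (0.911) and Tmem263 (0.910). In this mean of log2 CPM each member counted equally, Fmod with 2 to 19 counts per mouse included. Lum and Prelp had an r of -0.739 after the genotype means were removed, so the mean is not a profile that all members share. Cd83 itself was at only 2.24 CPM. Ddr2 is a collagen receptor of mesenchymal cells and Ppic a peptidyl-prolyl isomerase of the secretory pathway. These are descriptions over 10 mice that share library depth and tissue makeup, chosen as the highest of many.

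Of 9 further genes of the family, Kera, Epyc and Chad, known from cornea and cartilage, gave 0 counts in all 10 mice, and Optc, Podnl1 and Nyx were below the filter. Tsku (tsukushi, a secreted protein also made by the liver) was measured at 47.2 ± 14.5 CPM in Axl KO and 48.2 ± 11.9 CPM in WT mice (SD, n = 5; log2 fold change -0.038, adjusted p = 0.978 by edgeR). Ecm2 and Chadl had log2 fold changes of -0.055 and -0.018 (adjusted p = 0.934 and 0.993 by edgeR).

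The collagens to which these proteoglycans bind were lower in Axl KO as well, in 10 of 10 genes tested with a median log2 fold change of -0.33. None passed the adjusted threshold and 4 had an unadjusted p under 0.05 by edgeR. Over all tested genes 50.2% were lower, and 3.86% were lower with an unadjusted p under 0.05. The genes of this list and of those below share mice with each other and with the proteoglycans. Their counts are therefore not separate observations. Col5a1, which nucleates fibrils, had a log2 fold change of -0.41 and Col1a2, a chain of type I collagen, of -0.40 (adjusted p = 0.571 each by edgeR). The summed collagen level was 459 to 1014 CPM in Axl KO and 707 to 1059 CPM in WT mice, so the groups overlapped.

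Genes that process propeptides and core proteins were lower in 5 of 6 tested (median -0.24, 2 with an unadjusted p under 0.05). Bmp1, the procollagen C-proteinase that also cleaves the propeptides of several of these proteoglycans, was measured at 9.75 to 13.2 CPM in Axl KO and 12.9 to 15.6 CPM in WT mice (log2 fold change -0.32, adjusted p = 0.571 by edgeR), and its relative Tll1 had a log2 fold change of -0.90 (adjusted p = 0.579 by edgeR) at 0.878 and 1.75 CPM in Axl KO and WT mice. Proteases that cleave the core proteins were lower in 5 of 7 (median -0.075, 0 with an unadjusted p under 0.05), among them the aggrecanase Adamts5 with -0.12 (adjusted p = 0.895 by edgeR).

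The enzymes that build the sugar chains had medians close to that of all genes. For chondroitin and dermatan sulfate synthesis 9 of 19 tested genes were lower (median 0.022). Chst11, a chondroitin sulfotransferase, had a log2 fold change of 0.29 and Csgalnact1, which starts chondroitin chains, of -0.35 (adjusted p = 0.571 each by edgeR). For keratan sulfate synthesis 5 of 10 were lower (median 0.031), and B4galt1, a galactosyltransferase, had a log2 fold change of 0.24 (adjusted p = 0.669 by edgeR). For the supply of the sulfate donor 4 of 6 were lower (median -0.0098), with Impad1, a phosphatase that clears a by-product of sulfation, at -0.0028 (adjusted p = 0.998 by edgeR).

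Of the genes on which soluble proteoglycans act, TGF-beta ligands and receptors were lower in 2 of 8 (median 0.011), and Tgfbr2, the type II receptor, had a log2 fold change of 0.018 (adjusted p = 0.981 by edgeR). Other receptors were lower in 11 of 13 (median -0.14, 1 with an unadjusted p under 0.05). This was Lrp1, an endocytic receptor that takes up decorin, measured at 515 to 647 CPM in Axl KO and 599 to 841 CPM in WT mice (log2 fold change -0.27, adjusted p = 0.571 by edgeR).

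Markers of several cell types had the same direction as the proteoglycans. Fibroblast and progenitor markers, a list without any of the 9 genes, were lower in 13 of 14 tested (median -0.22, 1 with an unadjusted p under 0.05 in each direction), and their sum was 1063 to 1458 CPM in Axl KO and 1371 to 1623 CPM in WT mice. Cygb had a log2 fold change of -0.30 and Ly6a, a progenitor surface marker and the exception in direction, of 0.27 (adjusted p = 0.571 each by edgeR). Axl KO mice 4 and 5, with the lowest fibroblast sums of 1188 and 1063 CPM, had the lowest Dcn levels of all mice. Prelp followed this order only in part. In Axl KO 5 its level was below that of every WT mouse (326 CPM). Axl KO 1, however, had the highest fibroblast sum of its group (1458 CPM) and the lowest Prelp level of all mice (274 CPM). Axl KO 4 had Prelp within the WT range (459 CPM). The part of this list in the proteoglycan differences was not tested.

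Tendon and fascia markers were lower in 4 of 6 tested (median -0.56), with sums of 18.9 to 28.1 CPM in Axl KO and 26.7 to 33.3 CPM in WT mice. The defining tendon genes Scx and Tnmd gave at most 2 and 1 counts in any mouse, and Kera, Cilp2 and Ptx4 gave 0. Fibin, the most abundant tested gene of that list, had a log2 fold change of 0.058 (adjusted p = 0.95 by edgeR). With the mean of these markers as a covariate, the median log2 fold change of the 8 members was -0.041 and 5 of the 8 were lower in Axl KO. In that fit Prelp was at -0.27 (SE 0.21), Ogn at -0.12 (SE 0.19), Dcn at -0.10 (SE 0.17) and Aspn at -0.018 (SE 0.21). Without the covariate these SEs were 0.14, 0.13, 0.11 and 0.15. The marker sums were themselves mostly lower in Axl KO, so this fit cannot separate the markers from genotype.

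Skeletal muscle markers were lower in 19 of 19 tested (median -1.04, 0 with an unadjusted p under 0.05), and among them Myh4, a fast myosin, ranged from 0.902 to 822 CPM in Axl KO and from 246 to 1263 CPM in WT mice (adjusted p = 0.77 by edgeR). With the mean of these markers as a covariate, 7 of 8 members were lower with a median of -0.15. Prelp was at -0.32 (SE 0.16), Dcn at -0.28 (SE 0.13), Ogn at -0.15 (SE 0.14) and Aspn at -0.15 (SE 0.17). Since the muscle markers were themselves lower in Axl KO, this fit cannot separate them from genotype either. Without Axl KO mice 1 and 2, in which muscle genes were nearly absent, 7 of 8 members were lower with a median of -0.19. In the latter fit, chosen after the values were seen, Dcn was at -0.34 and Lum at -0.29 (adjusted p = 0.84 and 0.846 by edgeR).

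Markers of vessels were also lower in most genes. Endothelial markers were lower in 9 of 10 (median -0.17, 2 with an unadjusted p under 0.05), with sums of 561 to 751 CPM in Axl KO and 622 to 871 CPM in WT mice. Cldn5, a tight junction protein, had a log2 fold change of -0.73 and Egfl7, a secreted endothelial factor, of -0.31 (adjusted p = 0.571 each by edgeR). Mural markers were lower in 8 of 10 (median -0.090), with sums of 775 to 906 CPM in Axl KO and 856 to 965 CPM in WT mice and with Notch3 at -0.40 (adjusted p = 0.571 by edgeR).

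Nerve sheath markers were lower in 4 of 6 (median -0.14), with sums of 96.7 to 123.5 CPM in Axl KO and 104 to 118 CPM in WT mice and with Cdh19 at -0.28 (adjusted p = 0.571 by edgeR). Macrophage markers were lower in 4 of 9 (median 0.018), with sums of 139 to 258 CPM in Axl KO and 157 to 242 CPM in WT mice and with Lyz2 at 0.018 (adjusted p = 0.99 by edgeR). Cartilage and bone markers were lower in 1 of 2 tested, with 5 of the 11 listed at 0, sums of 12.3 to 24.5 CPM in Axl KO and 11.2 to 15.4 CPM in WT mice and with Alpl at 0.63 (adjusted p = 0.571 by edgeR).

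Brown adipocyte markers went the other way, lower in 1 of 12 (median 0.12) and with an unadjusted p under 0.05 in 5, all higher in Axl KO. Dio2, the deiodinase that activates thyroid hormone, had a log2 fold change of 0.89 and Cox8b, a cytochrome c oxidase subunit of brown fat, of 0.24 (adjusted p = 0.571 each by edgeR). Their sum was 16420 to 21020 CPM in Axl KO and 15190 to 17470 CPM in WT mice. CPM are shares of a library, so a higher share of adipocyte transcripts and a lower share of stromal transcripts of whole tissue cannot be told apart from each other. No gene of any of the lists passed an adjusted p of 0.05 in edgeR.

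**Figure D5:**
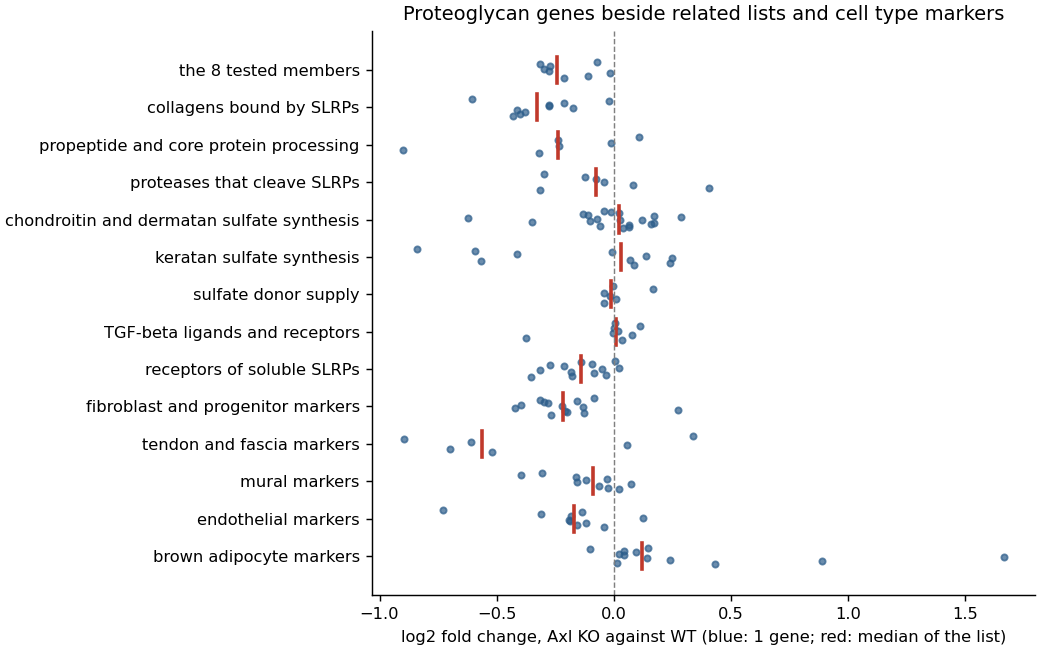
Log2 fold change in Axl KO against WT iBAT of each tested gene (blue points) among the 8 tested members and in 13 of the lists, with the median of each list in red. The members, the collagens and the fibroblast markers lie mostly below 0, the lists of sugar chain synthesis around 0, and the brown adipocyte markers mostly above 0.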

How the data were processed

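RNA of iBAT from 5 Axl KO and 5 WT mice was sequenced. The authors deposited 1 table per mouse of raw counts per Ensembl gene, without normalization or pooling. The paper's methods name hisat2, whereas the submitters' processing notes name Trimmomatic 0.36, STAR 2.6.1c and GRCm38.p5, and the methods describe rRNA depletion whereas the labels name polyA RNA. The paper gives a slightly longer HFD from a later age than the labels, whose values are used here. The counting tool and its strand setting are not given in the sources used here, so reads of overlapping antisense genes could not be told apart. Of the identifiers, 41163 of 41249 were in GENCODE M21, which gave names, positions and exon lengths.

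Counts were compared in R 4.3.3 with edgeR 4.0.16 (TMM, quasi-likelihood test, no covariate) over genes with a mean above 1 CPM, and p-values were adjusted by Benjamini-Hochberg over all of them, with a threshold of 0.05. The coefficient of variation between mice was 14.8%. Single values were compared with exact permutation tests in scipy 1.17.1, correlations with 100000 permutations within genotype, and levels per kb with sign flips within mice. The fit was tested on simulated counts with 200 changed genes. The tables of any 2 mice of a group differed by more than sampling noise. Same-numbered mice of the 2 genotypes did not in general deviate together (r from -0.356 to 0.373). Only for replicate 2 was this r above the highest with another number (0.226). The numbers were therefore not taken to pair the mice.

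The genes named are Axl, the 9 members, up to 2 genes per list with the lowest unadjusted p under 0.05 or otherwise the most abundant one, and the genes most like the members. Ucp1, Scx, Tnmd and genes at 0 were added as checks of tissue and markers. The members and lists were chosen with earlier results of these data known. Alternatives were DESeq2 1.42.0, RLE size factors, filterByExpr, no filter, a robust fit, protein-coding genes alone, a replicate block, muscle or tendon markers as a covariate and each mouse left out. The fit without Axl KO mice 1 and 2 was chosen after seeing the data.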

Additional observations from a re-analysis of the deposited data

Results flagged for a closer look

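Ogn in Axl KO 3, at 29.8 CPM, stood apart from the other Axl KO mice, of which the nearest was at 20.9 CPM, a gap of 0.778 of the range of the group. Axl in Axl KO 4, at 0.437 CPM (3 counts), stood below the other Axl KO mice, of which the nearest was at 1.69 CPM, a gap of 0.801 of the range. A gap above 0.71 of the range marks a mouse in a group of 5. The 20 groups checked gave 2 such mice, where chance gives about 1.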

How the results depend on the processing

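The estimates of Prelp, Ogn, Aspn and Dcn were below 0 under each alternative run, and no alternative called any member, but the size varied. With DESeq2, 9 genes were called in place of 1. With tendon and fascia markers as a covariate, the median of the members was -0.041, and the log2 fold changes of Bgn (0.062), Lum (0.14) and Fmod (0.10) turned positive, while Aspn was at -0.018, Dcn at -0.10 and Ogn at -0.12. With muscle markers as a covariate the median was -0.15, with Ogn and Aspn at -0.15 each. The log2 fold change of Fmod was 0.077 with muscle markers as a covariate and 0.042 without Axl KO mice 1 and 2. The causes were not tested. The sums of the tendon and fascia markers and the muscle markers were themselves mostly lower in Axl KO, so a covariate of either cannot be separated from genotype. With 1 mouse left out, the log2 fold changes ranged from -0.38 to -0.21 for Prelp, from -0.45 to -0.22 for Ogn, from -0.45 to -0.20 for Aspn, from -0.27 to -0.11 for Dcn, from -0.78 to -0.081 for Fmod, from -0.23 to 0.015 for Bgn (positive without WT 5), from -0.22 to 0.11 for Lum (positive without Axl KO 3, 4 or 5 or WT 3) and from -0.17 to 0.072 for Podn (positive without WT 3). The median of the members then ranged from -0.30 to -0.14, the correlation of Fmod and Prelp from -0.0839 to 0.437 and that of Ogn and Aspn from 0.756 to 0.935. In WT mice alone, 0 of the 8 steps in the order of levels passed, since 5 mice are too few for the exact test to reach the threshold. With the replicate block, 1 gene and 0 members were called and the median was -0.25. An unadjusted p under 0.05 was reached by 3 members (2 without the block, 1 in the robust fit). Over all 13739 tested genes it was reached by 1052 with the block, 1154 without it and 1135 in the robust fit. The block changed no call, but it moved the unadjusted edgeR p of Ogn from 0.0432 to 0.00299 and of Aspn from 0.102 to 0.0139. Those of Prelp (0.0446) and Dcn (0.0779) hardly moved. The depth limits Fmod and Omd, with at most 19 and 5 counts per mouse.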
